A study of Mus musculus with 47 samples.

Results

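The 5 genes described here are the adult globin genes Hba-a1, Hba-a2, Hbb-bs and Hbb-bt and the heme synthesis gene Alas2, chosen by name as genes of red blood cells. All 5 were found by gene symbol or Ensembl identifier in both the male and the female count table, which list 55416 genes. Brain RNA came from 3xTg mice, a homozygous model of Alzheimer's disease in which mutant human transgenes are expressed in every group, the Control groups included. Mice were placed at 6 months of age on an amino acid defined Control diet or on a diet restricted in isoleucine (IleR), leucine (LeuR) or valine (ValR) for 9 months, and brains were taken at 15 months. Control, IleR, LeuR and ValR were represented by 4, 3, 3 and 4 libraries in males and by 6, 5, 6 and 6 in females. Of the 47 labelled samples, 10 male samples were not analysed here, and the methods state that outliers were taken out on the basis of a principal component analysis.

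Hba-a1 and Hba-a2 encode the alpha chain of adult hemoglobin, and Hbb-bs and Hbb-bt encode its beta chain. Alas2 encodes the erythroid 5-aminolevulinate synthase, the enzyme of the first and rate-limiting step of heme synthesis in developing red blood cells, while Alas1 serves the same step in other tissues. Mature red blood cells have no nucleus and no longer transcribe these genes, but reticulocytes still hold the messages, so that blood left in the vessels of a tissue carries them into its RNA. Globin transcripts have also been described in some neurons and glia. The methods name cervical dislocation and flash freezing and mention no perfusion. In bulk tissue, fewer blood cells and less globin RNA per blood cell cannot be told apart.

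Library totals ran from 12682687 to 25722333 estimated counts in males and from 10672599 to 21370973 in females. The labels give brain as the tissue in all libraries while 1 protocol field speaks of liver, and 6 neuronal marker genes summed to between 3187 and 5849 counts-per-million (CPM) units. Libraries of male Control-fed mice stood apart from those of the restricted males in brain region markers. The 8 cerebellar markers summed to 42.3 to 151 CPM in male Control libraries and 354 to 3549 CPM in restricted male libraries, and the 8 forebrain markers to 683 to 1890 CPM and 23.6 to 435 CPM. Diet and the region sampled therefore cannot be told apart in males. A single male library, LeuR 19, stood above all others for the genes described here, and the main results are given with and without it. It was also the highest male library in summed choroid plexus (4927 CPM against at most 2989 in the others), oligodendrocyte (18239 against 16500 CPM) and endothelial markers (528 against 472 CPM) and in the mitochondrial share of counts (5.55%), and the part of these in its globin values was not tested.

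The alpha and beta genes each come as a pair of near-identical copies, and the stretches that hold the difference are shown because they set how far the rows of a pair can be told apart. On GRCm38, Hba-a1 (ENSMUSG00000069919) lies at chr11:32283511-32284465 and Hba-a2 (ENSMUSG00000069917) at chr11:32296489-32297298, both on the plus strand. Hbb-bs (ENSMUSG00000052305) lies at chr7:103826534-103828096 and Hbb-bt (ENSMUSG00000073940) at chr7:103812524-103813996, both on the minus strand. The coding sequences, taken from GENCODE M21, each span 3 exons and are 429 bases in both alpha genes and 444 bases in both beta genes. Coding identity was 99.8% within each pair. The only coding difference between the alpha genes was C381T and that between the beta genes C417T, with positions counted from 1 at the A of the start codon and the base of the first-named gene given first. The 61 coding bases around each difference, 5′ to 3′ with the differing base in capitals, read as follows.
Hba-a1: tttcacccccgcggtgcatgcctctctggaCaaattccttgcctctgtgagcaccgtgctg
Hba-a2: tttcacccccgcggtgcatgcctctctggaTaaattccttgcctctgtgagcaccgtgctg
Hbb-bs: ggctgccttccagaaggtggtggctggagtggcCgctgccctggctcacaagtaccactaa
Hbb-bt: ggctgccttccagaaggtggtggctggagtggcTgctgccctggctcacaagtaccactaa

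Of all 50-base windows of the Hba-a1 transcript, 67.5% were also found in Hba-a2, and 86.9% of those of Hba-a2 were found in Hba-a1. For the beta pair the shares were 65.8% of Hbb-bs and 58.3% of Hbb-bt. No 50-base window was shared between members of different kinds, alpha, beta or Alas2, in any of the 8 such pairs. A read from a shared window can be assigned only by estimation, so the split within a pair is uncertain in the estimated counts. Alas2 lies at chrX:150547375-150570638 and has 11 exons.

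The 100 bases before the RefSeq start of each gene (GRCm38.p6) were searched on either strand for the letters of 4 short motifs, given in capitals below. These were TATAA of the TATA box, then CCAAT of the CCAAT box, then CACCC as bound by KLF factors of erythroid cells, and last GATAA as bound by GATA factors. The Hba-a2 window, chr11:32296392-32296491 on the plus strand, holds the letters of the Hba-a1 window shifted by 3 bases and stands for both. The others are Hbb-bs at chr7:103827929-103828028, Hbb-bt at chr7:103813924-103814023, both on the minus strand, and Alas2 at chrX:150547317-150547416 on the plus strand. Some GENCODE transcripts of these genes start upstream of the RefSeq start.
Hba-a2: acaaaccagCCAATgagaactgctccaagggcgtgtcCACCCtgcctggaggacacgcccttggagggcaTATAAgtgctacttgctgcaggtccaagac
Hbb-bs: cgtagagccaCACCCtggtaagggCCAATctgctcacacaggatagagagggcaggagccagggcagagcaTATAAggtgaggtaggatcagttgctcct
Hbb-bt: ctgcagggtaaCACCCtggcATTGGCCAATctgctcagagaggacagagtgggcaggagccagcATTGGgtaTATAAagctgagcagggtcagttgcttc
Alas2: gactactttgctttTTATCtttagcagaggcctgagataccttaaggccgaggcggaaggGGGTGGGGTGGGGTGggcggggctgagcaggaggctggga

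The TATAA letters occurred 1 time in each globin window and in none for Alas2. CCAAT occurred 1 time in Hba-a1, Hba-a2 and Hbb-bs and 3 times in Hbb-bt, where 1 match and its reverse complement lie side by side. CACCC occurred 1 time in each globin window and 3 times in Alas2, and GATAA only in Alas2. Among 32851 promoters of the same length, 10.2% held the TATA letters, 18.9% the CCAAT letters, 27.2% the CACCC letters and 8.55% the GATA letters. These matches are a description of letters and were not tested as binding sites.

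Hbb-bs, the beta chain gene with the higher count, varied over a wide range among mice on the same diet. In male Control libraries 1, 3, 4 and 5 its level was 216, 757, 1153 and 1486 CPM. In IleR libraries 13, 14 and 17 it was 737, 503 and 689 CPM, in LeuR libraries 19, 20 and 21 it was 7368, 2393 and 884 CPM, and in ValR libraries 7, 9, 10 and 12 it was 1532, 1838, 1099 and 395 CPM. The IleR libraries fell inside the range of the Control libraries, LeuR 19 and LeuR 20 lay above every other male library, and LeuR 21 and 2 ValR libraries lay inside the Control range, with ValR 12 the second lowest of the 14 males. Among females the lowest, median and highest Hbb-bs levels were 96.0, 139 and 427 CPM on Control, 82.6, 258 and 454 CPM on LeuR, and 153, 331 and 815 CPM on ValR. The 5 female IleR libraries, 38 to 42, held 192, 174, 154, 130 and 74.5 CPM. All 4 female groups overlapped, with ValR 35 the highest female library and IleR 42 the lowest.

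Ordered by mean, Hbb-bs was highest in LeuR-fed males (3548 ± 3393 CPM, SD, n = 3), followed by ValR-fed males (1216 ± 626 CPM, n = 4), Control-fed males (903 ± 547 CPM, n = 4) and IleR-fed males (643 ± 124 CPM, n = 3). ValR-fed females (384 ± 233 CPM, n = 6), LeuR-fed females (276 ± 139 CPM, n = 6), Control-fed females (224 ± 156 CPM, n = 6) and IleR-fed females (145 ± 45.5 CPM, n = 5) came next. No group was separated from its neighbor in this order, since their ranges overlapped at every step.

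Alas2 ranked the libraries in much the same way at a lower level. Its level was 8.34, 28.0, 42.6 and 55.1 CPM in male Control libraries 1, 3, 4 and 5, and 28.9, 18.0 and 30.3 CPM in IleR libraries 13, 14 and 17. LeuR libraries 19, 20 and 21 held 284, 89.8 and 27.1 CPM, and ValR libraries 7, 9, 10 and 12 held 61.8, 72.6, 39.0 and 14.9 CPM. LeuR 19 was again far above all others and LeuR 21 was below the Control median of 35.3 CPM. In females Alas2 was between 1.94 CPM, in LeuR 44, and 35.3 CPM, in ValR 35, with medians of 5.12 CPM on Control, 4.81 on IleR, 7.95 on LeuR and 11.6 on ValR. The female values rested on as few as 20 counts per library, against 125 in the lowest male library.

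Hba-a2, an alpha chain gene, was measured at 199, 719, 1075 and 1444 CPM in the 4 male Control libraries and at 6776, 2469 and 871 CPM in the 3 male LeuR libraries, taken in the order used above. Its median was 661 CPM on IleR and 1198 CPM on ValR in males, and 152, 158, 286 and 332 CPM in Control-, IleR-, LeuR- and ValR-fed females. Hba-a1, the other alpha chain gene, had male medians of 573, 395, 1436 and 757 CPM on Control, IleR, LeuR and ValR and female medians of 90.4, 95.9, 169 and 196 CPM. Hbb-bt, the beta chain gene with the lower count, had male medians of 184, 115, 434 and 233 CPM in the same order and female medians of 25.0, 15.8, 40.6 and 59.8 CPM. For all 5 genes the highest of 37 libraries was LeuR 19, and the highest level was 89.7 times the lowest for Hba-a1, 90.0 times for Hba-a2, 98.9 times for Hbb-bs, 107 times for Hbb-bt and 146 times for Alas2. These ratios rest on LeuR 19. The next highest library was LeuR 20 for each gene, at 1436 against 4168 CPM for Hba-a1 and 89.8 against 284 CPM for Alas2.

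**Figure D1:**
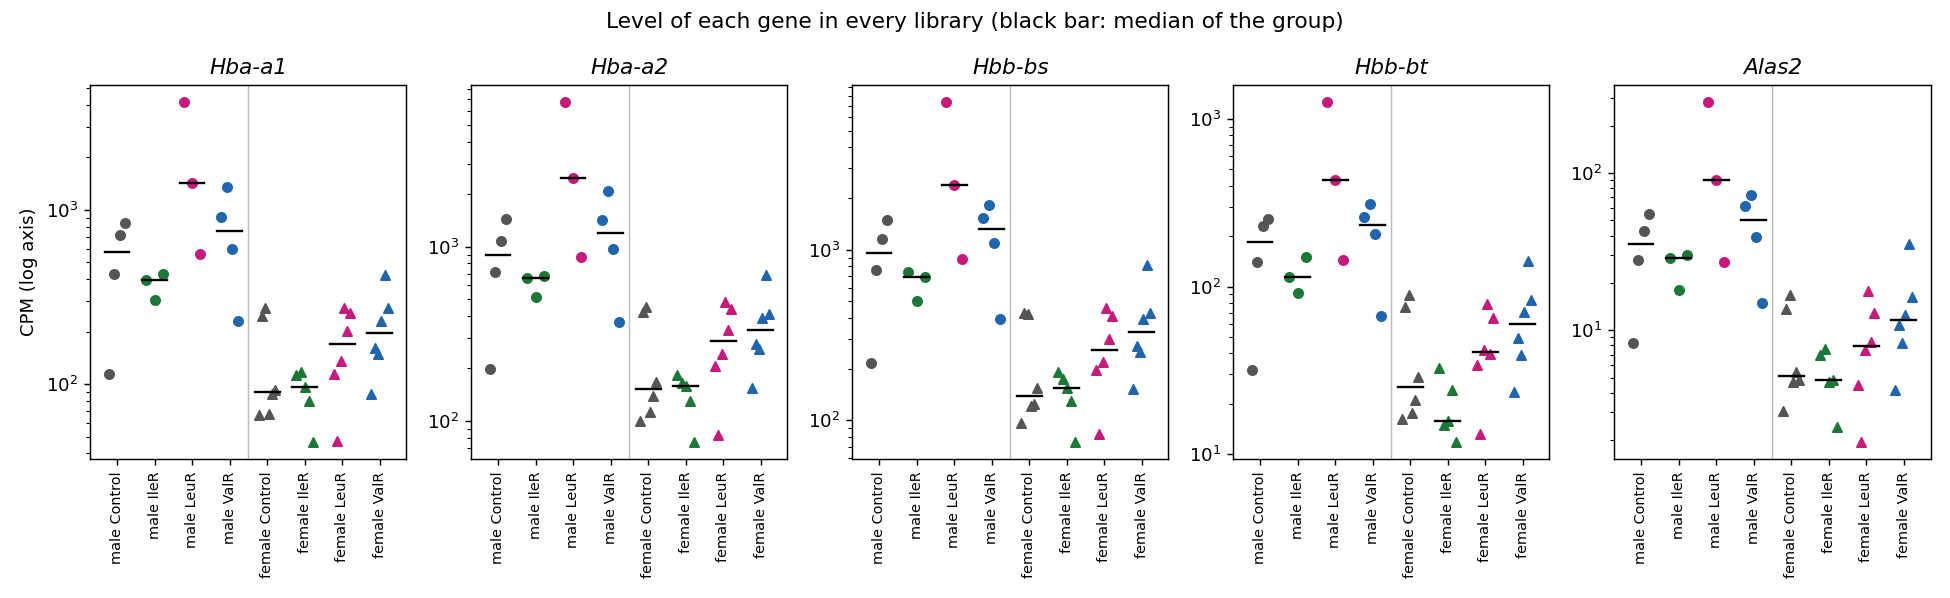
Level of each gene in CPM (log axis) in every library, with 1 panel per gene, circles for males, triangles for females and a black bar at the median of each group. In every panel the male LeuR 19 library is the highest point, from 284 CPM for Alas2 to 7368 CPM for Hbb-bs, and most male libraries sit above most female libraries.

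Levels of different genes were compared only after division by transcript length (CPM per kilobase). On that scale the male medians were 1664 for Hba-a2, 1579 for Hbb-bs, 827 for Hba-a1, 254 for Hbb-bt and 17.0 for Alas2. The female medians kept this order, at 373, 314, 167, 48.4 and 3.68. Together, the 4 globin genes took between 0.0207% of the library, in female IleR 42, and 1.94% (95% Wilson interval 1.93 to 1.94%), in male LeuR 19. The median share was 0.277% over 14 males and 0.0557% over 23 females.

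Although their levels spanned such a range, the 5 genes moved in near fixed proportion from mouse to mouse. Within each sex every pair of the 5 genes was correlated across libraries, with Pearson's r on log2 CPM between 0.930 and 0.999 and Spearman's rho of at least 0.898 in 20 relations (permutation p = 1e-05 and adjusted p = 1e-05, the smallest that 100000 permutations can give, 14 males and 23 females). The lowest r was that of Hbb-bt with Alas2 in females. All 20 relations held after the 2 libraries farthest from the median were left out (r at least 0.902) and after the diet means were subtracted (r at least 0.934). Within a pair of copies the counts share reads, and any 2 counts of 1 library share its total. Scaling by the library total gave an r of at least 0.931. It keeps a divisor common to the 2 genes, so it cannot show what the shared total adds.

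**Figure D2:**
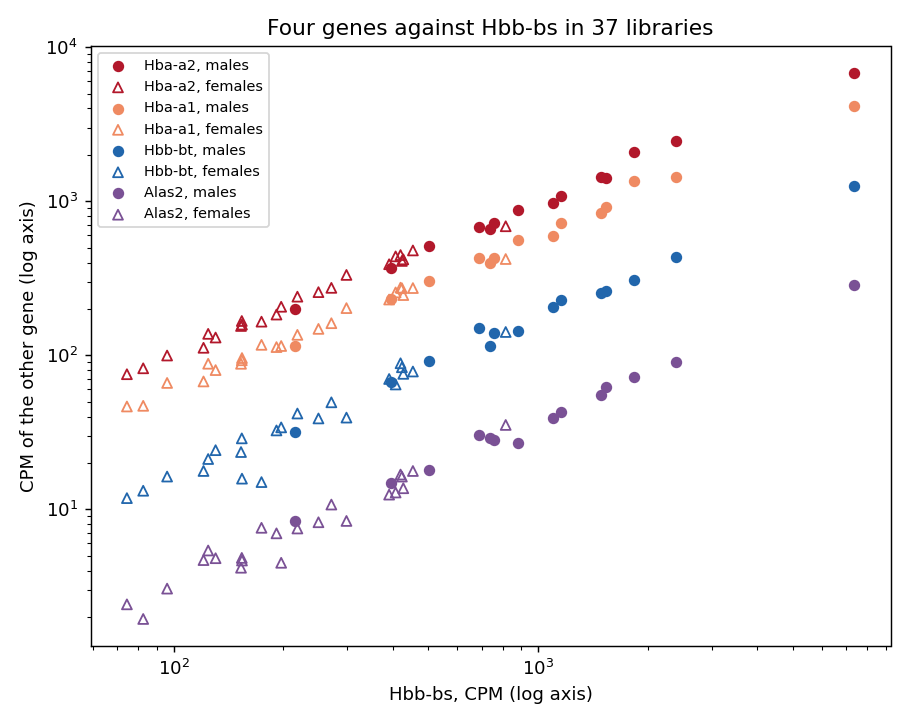
CPM of Hba-a2, Hba-a1, Hbb-bt and Alas2 against CPM of Hbb-bs in the 37 libraries, both axes logarithmic, with filled circles for males and open triangles for females. The points of each gene lie along 1 line over the whole range from 74.5 to 7368 CPM of Hbb-bs, males and females alike.

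The ratios between the genes were accordingly narrow. Hba-a1 made up 35.7 to 41.4% of the alpha counts, a spread of 1.16 times between the extremes, and the ratio of alpha to beta counts was 1.16 to 1.60. Alas2 was measured at 8.13 to 17.1 counts per 1000 globin counts. Hbb-bt made up 7.91 to 17.9% of the beta counts, the widest of these shares. Its lowest values came from female IleR 39 (7.91%, 95% Wilson interval 6.94 to 9.05%) and female IleR 40 (9.31%, 8.24 to 10.5%), and the next lowest was female LeuR 47 at 11.7%. These intervals cover counting error only, and the assignment of shared reads within the beta pair may add to it.

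**Figure D3:**
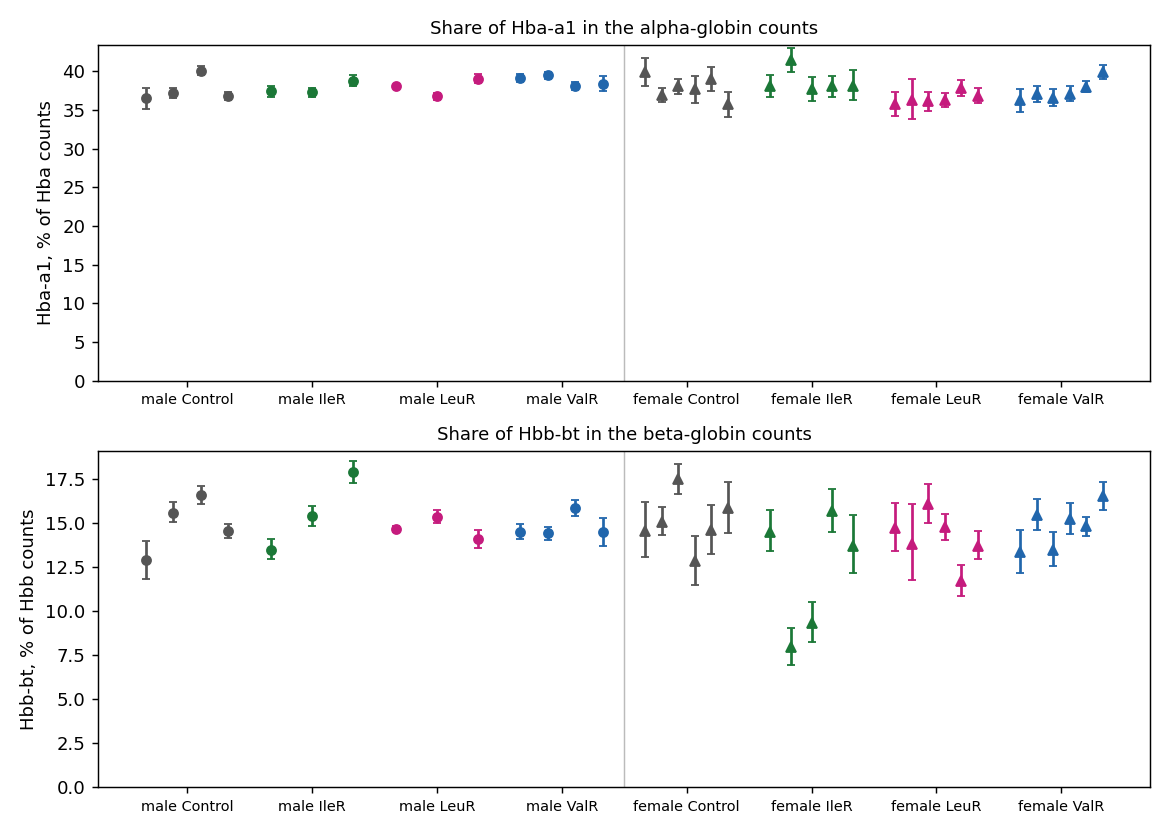
Hba-a1 as a percent of alpha counts (upper panel) and Hbb-bt as a percent of beta counts (lower panel) in each library by group, with circles for males, triangles for females and bars for 95% Wilson intervals. Hba-a1 stays between 35.7 and 41.4%, while Hbb-bt falls below 10% only in female IleR 39 (7.91%) and IleR 40 (9.31%).

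The spread between mice on 1 diet was large for these genes. The pooled within-diet SD of log2 CPM was 1.11 to 1.17 in males for the 5 genes, against a median of 0.223 over 15393 genes, and only 1.88 to 2.24% of genes varied more. In females it was 0.814 to 0.958, against a median of 0.248 over 15354 genes, and 4.85 to 7.27% of genes varied more.

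The diets were first compared within males, where the comparison asks whether restriction of a single branched-chain amino acid was accompanied by a change in these transcripts. None of the 5 genes passed the threshold in IleR-fed males, where 15.3% of 22197 genes did (edgeR quasi-likelihood test, Benjamini-Hochberg adjusted p under 0.05). Their log2 fold changes were between -0.37 for Alas2 and -0.48 for Hbb-bs, with SEs of 0.68 to 0.71 and adjusted p of 0.699 to 0.780. In ValR-fed males none of the 5 passed, where 23.5% of all genes did, and the log2 fold changes were 0.38 for Hbb-bt to 0.57 for Hba-a1 (adjusted p = 0.579 to 0.732). No member had an unadjusted p under 0.05 in either comparison, where 29.6% and 35.2% of all genes did, and DESeq2 and limma-voom called none. With 1 library left out, the log2 fold changes ran from -0.025 (Alas2) to -0.80 (Hbb-bs) on IleR. On ValR they ran from 0.038 (Hbb-bt) to 0.89 (Hba-a1), and none was called on either diet.

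In LeuR-fed males the 5 genes were measured at about the same distance above Control, but none passed the threshold, where 10.1% of all genes did. The log2 fold change was 1.95 for Hbb-bs (SE 0.68, adjusted p = 0.0822), 1.95 for Hba-a2 (SE 0.68), 1.94 for Hba-a1 (SE 0.69), 1.89 for Hbb-bt (SE 0.70, adjusted p = 0.0994) and 1.97 for Alas2 (SE 0.70). All 5 had an unadjusted p under 0.05, as did 27.0% of all genes. DESeq2 called 3 of the 5 (Hba-a1, adjusted p = 0.0301, Hba-a2, 0.0268, and Hbb-bs, 0.0246), while limma-voom called none. Over all genes DESeq2 called 3611 in this comparison, against 2249 by edgeR.

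A single library decided the size of this difference. Without LeuR 19 the log2 fold changes were 0.91 for Hba-a1, 0.95 for Hba-a2, 0.85 for Hbb-bs, 0.81 for Hbb-bt and 0.78 for Alas2, with edgeR adjusted p of 0.473 to 0.561. Without LeuR 21, the LeuR library that lay inside the Control range, they were 2.37 to 2.47 and all 5 passed (edgeR adjusted p = 0.0218 to 0.0309). In that fit 3340 genes passed in all, against 2249 with every library. Leaving out LeuR 20 or any of the other 11 male libraries gave no call. With a brain region score (cerebellar and brainstem less forebrain markers) as a covariate, the log2 fold changes were -3.72 to -4.06 on IleR, -0.91 to -1.34 on LeuR and -3.48 to -4.06 on ValR, with none called. That score did not overlap between Control and restricted males, so the fit separates it from diet only poorly.

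In females no gene of the genome passed the threshold in any diet comparison (0% of 20344 genes by edgeR), and the 5 genes were no exception. An unadjusted p under 0.05 was given to 577 genes on IleR (2.84%), 820 on LeuR (4.03%) and 777 on ValR (3.82%), none of them a member, and DESeq2 called 8, 1 and 0 genes and limma-voom 1, 0 and 0. The members had log2 fold changes of -0.61 to -1.06 in IleR-fed females, 0.13 to 0.37 in LeuR-fed females and 0.65 to 0.85 in ValR-fed females. The value farthest from 0 was that of Hbb-bt on IleR (log2 fold change -1.06, SE 0.52, edgeR adjusted p = 0.9999), the gene whose share of beta counts was lowest in IleR 39 and 40. On ValR the log2 fold change of Hbb-bs was 0.78 (SE 0.45).

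Whether a diet's effect differed between males and females was tested in 1 fit of all 37 libraries. None of the 5 genes passed for IleR, where 0.0979% of 22465 genes did, for LeuR, where 0.00445% did, or for ValR, where 4.25% did. The LeuR interaction was the largest, at a log2 difference of 1.61 for Hba-a2 to 1.85 for Alas2 (edgeR adjusted p = 0.377 to 0.397), and 3 of the 5 had an unadjusted p under 0.05, as did 13.0% of all genes. Without LeuR 19 it was as low as 0.55 for Hbb-bs.

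Levels in males and females were then set side by side, a comparison chosen after seeing the data. Hbb-bs was measured at 503 to 737 CPM in IleR-fed males and 74.5 to 192 CPM in IleR-fed females, and at 884 to 7368 CPM and 82.6 to 454 CPM in LeuR-fed males and females, with no overlap on either diet. On Control the male and female ranges overlapped through male Control 1 (216 CPM), and on ValR through male ValR 12 (395 CPM). Averaged over the 4 diets, all 5 genes were higher in males, where 14.6% of 22465 genes were higher and 31.9% differed in either direction. The log2 difference was 2.34 for Hba-a1, 2.32 for Hba-a2, 2.38 for Hbb-bs, 2.49 for Hbb-bt and 2.49 for Alas2 (SEs 0.28 to 0.31, edgeR adjusted p = 9.64e-07 to 1.88e-06), and all 5 passed with any single library left out (2.06 to 2.61). Without LeuR 19 the differences were 2.06 to 2.22 (edgeR adjusted p = 6.63e-06 to 1.32e-05), where 11.1% of 22704 genes were higher in males and 25.6% differed in either direction.

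Among Control-fed mice alone, the log2 difference between males and females was 1.90 for Hba-a2 to 2.06 for Alas2 (SEs 0.54 to 0.60). None of the 5 passed the adjusted threshold (adjusted p = 0.146 to 0.176), where 0.178% of genes did. All 5 had an unadjusted p under 0.05, as did 9.13% of all genes. DESeq2 called 3 of them, where it called 158 genes in all and edgeR 40. The 2 sexes were deposited in separate tables, and sex cannot be told apart from the handling of tissues and libraries. Over the 4 diets, 17.3% of all genes were lower and 14.6% higher in males (14.5% and 11.1% without LeuR 19). With LeuR 19 or without it, 7 of 8 forebrain markers were lower and 6 of 6 oligodendrocyte markers higher, while on Control 0 of each passed. The part of these markers in the globin values was not tested.

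**Figure D4:**
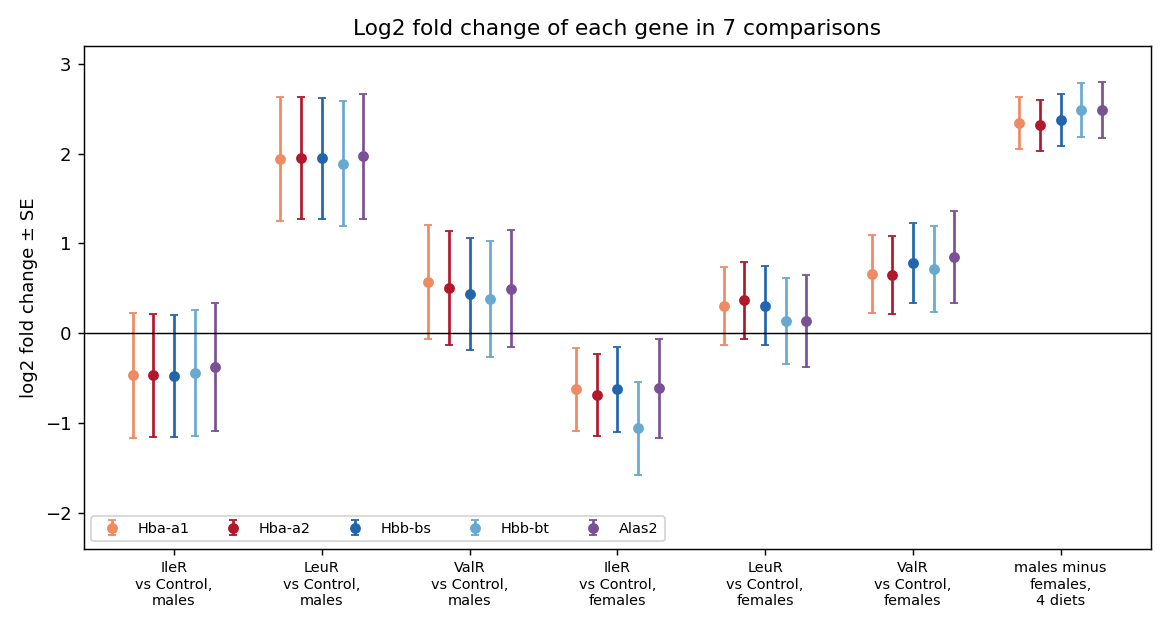
Log2 fold change (points) and SE (bars) of the 5 genes in the 3 diet comparisons of each sex and for males minus females over 4 diets. The 5 genes lie close together in every comparison, reach 1.89 to 1.97 in LeuR-fed males, and lie farthest from 0 relative to their SE in the comparison of males with females (2.32 to 2.49).

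Other genes of heme synthesis did not share the range of Alas2. The 11 listed genes summed to 377 to 518 CPM in males and 370 to 410 CPM in females, and Alas1, the non-erythroid synthase, was measured at 47.2 to 65.2 CPM in males and 42.5 to 57.2 CPM in females. Abcb10, a mitochondrial transporter of erythroid cells, rose in IleR- (log2 fold change 0.41), LeuR- (0.43) and ValR-fed males (0.34), and Ppox, the penultimate enzyme of the pathway, rose in ValR-fed males (0.35). These were the only calls among the 11 in the diet comparisons, where 15.3%, 10.1% and 23.5% of all genes passed on IleR, LeuR and ValR in males, with a median log2 fold change of 0.11 on IleR, 0.17 on LeuR and 0.14 on ValR in males beside 0.043, 0.053 and 0.032 over all genes tested. Without LeuR 19 the fold change of Abcb10 on LeuR was 0.44 but no longer passed (edgeR adjusted p = 0.0957), and on ValR 3 of the 11 rose and 1 fell, where 11.1% of all genes rose and 12.4% fell, with Urod (0.27) and Slc25a37 (-0.38) added. In males against females, Fech, which inserts iron into the ring, was higher by 0.29 and Abcb10 by 0.24 (0.22 and 0.24 without LeuR 19), and the other 9 did not pass, where 14.6% of all genes were higher (11.1% without LeuR 19).

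Of 8 further globin genes looked for, embryonic, minor or under the symbols Hbb-b1 and Hbb-b2, 3 had counts (Hbb-y, Hbq1a and Hbq1b). Their sum was 0.228 to 1.99 CPM in males and 0.185 to 1.27 CPM in females. Hba-x, Hbb-bh1 and Hbb-bh2 were listed but had no rounded count in any library, and Hbb-b1 and Hbb-b2 were not found. Hbq1b, a theta globin gene, was higher in males by 1.16 on the log2 scale, but did not pass without LeuR 19 (0.80, edgeR adjusted p = 0.203). Of the globins of brain cells, Ngb (neuroglobin) was measured at 1.55 to 58.7 CPM and Cygb (cytoglobin) at 47.0 to 119 CPM in males. Neither passed in a diet comparison. In LeuR-fed males the log2 fold change was 2.26 for Ngb (SE 0.84, edgeR adjusted p = 0.103) and 0.57 for Cygb (adjusted p = 0.166), and 2.65 and 0.42 without LeuR 19. Cygb was higher in males than in females by 0.37 (0.33 without LeuR 19), and Ngb did not pass (0.56, edgeR adjusted p = 0.286). Whether they differed from the blood globins was not tested.

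Genes of the red blood cell membrane and of erythroid maturation were counted only where they had reads in all Control libraries and all libraries of the diet compared, since a gene that enters through 1 group alone was let in for being high there. Of all genes so chosen, 17.0%, 11.3% and 26.2% passed on IleR, LeuR and ValR in males, and of the listed genes 3 of 16, 1 of 15 and 5 of 16. Ank1 (log2 fold change 1.72) and Epb41 (1.35), parts of the membrane skeleton that neurons also express, rose and Epor, the erythropoietin receptor, fell (-1.23) in IleR-fed males. In ValR-fed males, 3 rose (Ank1, 2.05, Epb41, 1.72, and Sptb, 0.56) and 2 fell (Epor, -1.22, and Gypc, -1.28). In LeuR-fed males only Epor changed (-1.73, edgeR adjusted p = 0.0130), and Slc4a1, the anion exchanger of the red blood cell membrane, was measured at 1.84 above Control (adjusted p = 0.152) and at 0.51 without LeuR 19 (adjusted p = 0.776). The median log2 fold change of the 15 on LeuR was 0.77, and 0.061 without LeuR 19, beside 0.029 and 0.015 over all genes so chosen. In females 0 of 16 passed on any diet.

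In males against females, 16 of the genes had reads in all libraries of at least 1 group of each sex. Of these 7 were higher and 1 was lower, where 15.3% of 20076 such genes were higher and 18.9% lower. The higher ones included Slc4a1 (log2 difference 2.95), Trim10 (2.31), Tent5c (1.85), Tspo2 (1.67), Aqp1 (1.46) and Bpgm, which makes 2,3-bisphosphoglycerate (0.43), and Epor was lower (-0.60). Without LeuR 19 the counts were 5 and 1, where 11.8% of such genes were higher and 16% lower. Aqp1 and Tspo2 no longer passed, and the difference was 2.62 for Slc4a1 and -0.51 for Epor. Genes that entered the test through male groups alone were not counted. Among them Nfe2, a transcription factor of erythroid and megakaryocytic cells, was at 0 to 3.99 CPM in males and 0 to 0.207 CPM in females, and Epb42 at 0 to 1.09 CPM and 0 to 0.310 CPM. Slc4a1 was present at 3.09 to 7.34 counts per 1000 Hbb-bs counts in males and 0.431 to 7.90 in females.

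LeuR 19 was also the highest male library for 17 of 18 leukocyte and platelet genes, 13 of 25 erythrocyte genes and 5 of 11 heme synthesis genes. The erythrocyte list summed to 1344 CPM there, against as much as 1699 CPM in the other males, and Epor was lowest there (0.996 CPM). Slc4a1 stood at 32.8 CPM there against at most 11.7 CPM in the other males, Bpgm at 176 against 96.7 CPM and Fech at 122 against 84.2 CPM. The neutrophil genes S100a8 (92.3 against 4.08 CPM), S100a9 (127 against 6.46 CPM) and Ngp (34.5 against 2.99 CPM) stood farther apart. S100a9 was at 17.2 counts per 1000 Hbb-bs counts in LeuR 19 and at most 3.51 in the other males.

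The list of 18 leukocyte and platelet genes summed to 364 CPM in LeuR 19, against 30.8 to 41.6 CPM in male Control, 10.7 to 28.3 CPM in male IleR, 10.2 to 46.5 CPM in male ValR and 7.22 to 73.1 CPM in female libraries. Of 11 with reads in all Control and LeuR libraries, 2 rose in LeuR-fed males, where 3.96% of all such genes rose, S100a8 (log2 fold change 4.98, edgeR adjusted p = 0.0448), S100a9 (5.05, adjusted p = 0.0436). Without LeuR 19 neither passed, and the values were 0.14 and 0.08. The B cell gene Ms4a1 entered the test only through the LeuR libraries, with 0.232 to 0.906 CPM there and at most 0.121 CPM in the other males. No gene of the list passed in the other diet comparisons of either sex. In males against females, 8 of the genes had reads in all libraries of at least 1 group of each sex, and 2 of these were higher and 0 lower, where 15.3% of such genes were higher. They were S100a9 (log2 difference 4.59, and 3.34 without LeuR 19), which was at 0 in 5 of 23 females, and Itga2b of platelets (0.59 and 0.53). The other 9 tested entered through male groups alone and were not counted. Among them the neutrophil genes S100a8 and Ngp had medians of 0.741 and 0.506 CPM in males and 0.0689 and 0.0604 CPM in females, and Camp was at 0 in 21 of 23 females and 3 of 14 males.

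**Figure D5:**
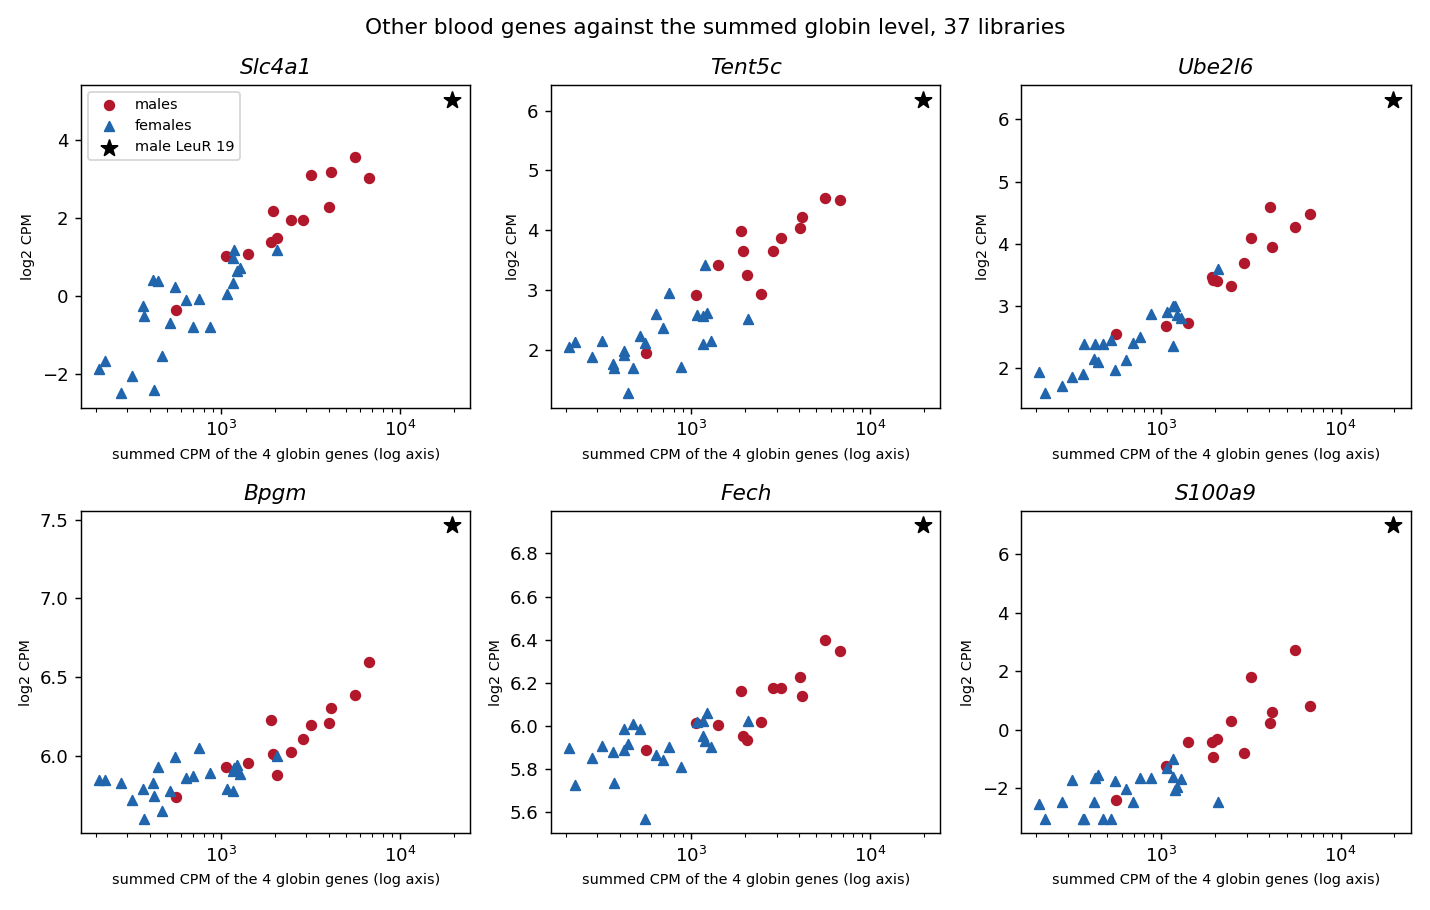
Log2 CPM of Slc4a1, Tent5c, Ube2l6, Bpgm, Fech and S100a9 against the summed CPM of the 4 globin genes (log axis) in 37 libraries, with circles for males, triangles for females and a star for male LeuR 19. Slc4a1 and Ube2l6 climb with the globins through both sexes, whereas Bpgm and Fech are nearly level among females and S100a9 lies highest in LeuR 19, at 127 CPM.

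Hemoglobin and heme clearance genes were tested as a list of 17. In diet comparisons only Flvcr1, a heme exporter, passed, beside 15.3% of all genes on IleR and 23.5% on ValR, with a rise of 0.57 in IleR-fed and 0.51 in ValR-fed males (2 of 17 rose on ValR without LeuR 19). In males against females 7 were higher and 0 lower, where 14.6% of all genes were higher, led by Hp (haptoglobin, the scavenger of free hemoglobin, 3.45), Trf (transferrin, 0.87) and Hmox1 (heme oxygenase, 0.79), followed by Fth1 (0.49), Flvcr1 (0.32), Ftl1 (0.21) and Lrp1 (0.15). Hp stood at 21.3 CPM in LeuR 19 and at most 5.24 CPM in the other males. Without that library 7 of the 17 were still higher, where 11.1% of all genes were, with Hp at 2.41, Trf at 0.78 and Hmox1 at 0.66. Trf is also abundant in oligodendrocytes, whose markers were higher in males.

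The genes whose log2 CPM was most like the mean of the 4 globins were ranked within each sex, which describes these libraries and gives no test. Among 15393 genes in 14 males the first were Isg20 (Pearson's r = 0.965, 0.663 in females), Slc4a1 (0.962 and 0.794), Ube2l6 (0.955 and 0.885), Tent5c (0.945 and 0.559) and Apol11b (0.940 and 0.883). Without LeuR 19 their r in males was 0.902 to 0.946. Among 15354 genes in 23 females the first were Ube2l6 (r = 0.885), Tfpi (0.735, 0.081 in males), Fn1 (0.731 and 0.600), Anxa1 (0.724 and 0.614) and Ogn (0.716 and 0.273). Ube2l6 was in the first 5 of both sexes, and of the genes named here Tfpi had the r that differed most between them.

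Relations of Hbb-bs to markers of vessels, blood cells and coverings of the brain were computed after seeing the data, as 15 relations over the 2 sexes. For each marker list the mean log2 CPM of its genes was used, not their summed CPM. In males Hbb-bs was related to the leukocyte list (r = 0.857, rho = 0.802, adjusted permutation p = 0.0012 and 0.0058) and to the endothelial list (r = 0.766, rho = 0.662, adjusted permutation p = 0.0058 and 0.0345). Without the 2 libraries farthest from the median the values of r were 0.718 and 0.648, and after the diet means were subtracted 0.821 and 0.804. Mural cell (r = 0.497, rho = 0.398, adjusted permutation p = 0.114 and 0.270) and meningeal markers (r = 0.322, rho = 0.209, adjusted permutation p = 0.389 and 0.644) did not pass in males. The mitochondrial share of counts passed by both measures (r = 0.676, rho = 0.622, adjusted permutation p = 0.0139 and 0.0418) and choroid plexus markers by r alone (r = 0.685, rho = 0.569, adjusted permutation p = 0.0136 and 0.0683). Their r fell to 0.392 and 0.420 without the 2 farthest libraries, and was 0.536 and 0.870 after the diet means were subtracted. The brain region score was not pooled in males because Control libraries were separate from the restricted ones in it.

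In females Hbb-bs was related to meningeal (r = 0.636, rho = 0.650, adjusted permutation p = 0.0058 for each), endothelial (r = 0.619, rho = 0.658, adjusted permutation p = 0.0066 and 0.0058), leukocyte (r = 0.574, rho = 0.572, adjusted permutation p = 0.0125 and 0.0182) and mural cell markers (r = 0.547, rho = 0.509, adjusted permutation p = 0.0139 and 0.0345). Their r was 0.534 to 0.595 without the 2 farthest libraries, and 0.439 to 0.544 after the diet means were subtracted. Choroid plexus markers, the brain region score, the mitochondrial share and the library total had r between -0.139 and 0.056 in females (adjusted permutation p = 0.715 to 0.993). In males the library total had an r of 0.025.

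Vessel markers were tested in the same comparisons. Of 12 endothelial genes none passed in a diet comparison of either sex, and 1 of 8 mural cell genes did, Abcc9 in ValR-fed males (log2 fold change 0.63), beside 15.3%, 10.1% and 23.5% of all genes on IleR, LeuR and ValR in males. In males against females, where 14.6% of all genes were higher, 8 of 12 endothelial genes were higher, including Ly6c1 (0.53), Emcn (0.48) and Pecam1 (0.45), as were 3 of 8 mural cell genes, 1 of 8 choroid plexus genes (Clic6, 1.21) and 0 of 8 meningeal genes. Without LeuR 19 the counts were 7, 3, 0 and 0, where 11.1% of all genes were higher. On Control only Cdh5, an endothelial cadherin, passed (0.55, edgeR adjusted p = 0.0499). These differences were smaller than the 2.32 to 2.49 of the globins and Alas2, and the part of vessel content in them was not tested.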

How the data were processed

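RNA of the left hemisphere was profiled by RNA sequencing. The authors aligned reads to GRCm38 and deposited expected counts (estimated counts per gene, 1 table per sex, not normalized). The aligner version is not given in the sources used here, and the labels describe both polyadenylated and total RNA. Deposited tables of fold changes and p-values for the diet comparisons hold the authors' own results and were not used. The number of table columns belonging to other samples was 0. Counting by strand is not stated.

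The 5 genes and all gene lists were chosen with earlier results of these data known. Expected counts were rounded, the low filter required 1 or more counts in all libraries of any diet group, and TMM-scaled counts were tested with edgeR 4.0.16 (quasi-likelihood, R 4.3.3), the 4 diets of a sex in 1 fit and both sexes in a joint fit for interactions, with Benjamini-Hochberg adjustment over all genes and a threshold of 0.05. DESeq2 1.42.0 and limma 3.58.1 (voom) were alternatives, as were other scalings, filters, summed gene copies, a brain region covariate and each library left out. The edgeR fit of the diets within each sex was tested on simulated counts with changes set on LeuR alone. The joint fit and the alternatives were not part of that test. CPM used TMM-scaled totals, and log2 CPM a prior count of 2.

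Correlations used 100000 permutations (scipy 1.17.1). Named genes were the 5 members, called genes of each list, and the 5 genes per sex, at a mean log2 CPM of at least 0, most like the globins. Genes named for LeuR 19 and the heme, neuroglobin and cytoglobin examples were chosen after their values were seen. Counts of erythroid and leukocyte genes over those with reads on both sides of a comparison were also added after seeing the data. Some genes of the lists are not reported here. Replicates were separate mice per the labels, and the least different of 73 pairs within groups had a chi-square of 9.09 per degree of freedom, so none was taken for a repeat. Depth was 10672599 to 25722333 counts per library, and intervals cover counting error only.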

Additional observations from a re-analysis of the deposited data

Results flagged for a closer look

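A library far from the others of its group was sought in 54 sets of 4 to 6 libraries. Each set was the level of 1 gene, or 1 share or ratio, in 1 group, so many sets hold the same libraries. By Dixon's criterion at 95%, which chance alone meets in about 1 set in 20, 3 sets had such a library. Hba-a1 made up 41.4% of alpha counts in female IleR 39, where the gap to the nearest library was 0.891 of the group's range. Hbb-bt made up 15.8% of beta counts in male ValR 10, with a gap of 0.931 of the range. The ratio of alpha to beta counts was 1.16 in female ValR 35, with a gap of 0.764 of the range. The male LeuR and IleR groups hold 3 libraries each and were not examined in this way.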

How the results depend on the processing

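Of 375 alternative values of the count of members called, 372 stayed within the stated limits, and of 1437 alternative fold changes 1410 kept direction and side of the threshold. DESeq2 called 3 members in LeuR-fed males and 3 in males against females on Control, and leaving out 1 library gave 0 to 5 calls in LeuR-fed males. With the brain region score as a covariate the log2 fold changes of Hba-a1, Hba-a2, Hbb-bs, Hbb-bt and Alas2 were -3.76, -3.72, -3.78, -4.06 and -4.05 in IleR-fed males, -0.93, -0.91, -0.996, -1.28 and -1.34 in LeuR-fed males and -3.48, -3.50, -3.66, -4.06 and -4.06 in ValR-fed males, none called. That score does not overlap between male Control (-7.39 to -4.77) and restricted libraries (-3.10 to 6.25), so diet and score are nearly collinear there. In LeuR-fed females, leaving out 1 library gave -0.093 to 0.51 for Hbb-bt and -0.18 to 0.49 for Alas2. Hbb-bt was below 0 without Control 25, 28 or 29 or LeuR 46, and Alas2 without Control 25 or LeuR 46. Over all genes, calls in males were 3398 for IleR (3 to 4380 over settings, 1838 to 4357 with 1 library left out), 2249 for LeuR (0 to 3611, 543 to 3952) and 5212 for ValR (0 to 5962, 3843 to 5990). Interaction calls were 22 for IleR (0 to 1042, 0 to 925), 1 for LeuR (1 to 310, 1 to 598) and 955 for ValR (29 to 2368, 191 to 2463), and sex calls on Control 40 (32 to 158, 28 to 77). The causes were not tested. No paired analysis was possible because each library carries its own number and none is shared between groups. Depth limits the female values of Alas2 and of the erythroid genes at or near 0.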
